A study of Mus musculus with 7 samples.

Results

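Cholesterol is built from acetyl-CoA through mevalonate and squalene, and 8 genes of that route and its control were followed across the 7 arrays of the series: Hmgcs1, Idi1, Fdps, Sqle, Lss, Cyp51, Insig1 and Srebf2. Members were found by matching the RefSeq accession printed for each probe to a gene symbol. Of the 8 genes, 7 had a probe, with 1 probe each, among 34967 gene probes that name 13968 genes. No probe was matched to Srebf2, which is not analysed here. None of the 8 is itself a lipoprotein receptor, so uptake is described from a separate list of uptake and transport genes.

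The arrays measured RNA of thoracic mammary glands from 4-week-old female mice, kept in serum-free organ culture with insulin, prolactin, aldosterone and hydrocortisone for a growth phase of 10 days and, for the 24-day groups, with insulin alone for another 14 days. Each group had 1 array, so no value below has a replicate and no test was possible. The 7 groups were glands of αERKO mice, which carry a disrupted estrogen receptor α gene (Esr1), at 24 days; glands of βERKO mice, with a disrupted estrogen receptor β gene (Esr2), at 24 days; wild type (WT) C57 glands at 24 days with the carcinogen DMBA; WT C57 glands at 10 days and at 24 days without DMBA; and wild type Balb/c glands at 24 days without and with vitamin D5, a form of vitamin D whose dose is not given in the sources used here. Both knockouts were bred on a C57BL6/129SV background while their control was C57, so genotype and background cannot be told apart. RNA of 5 mice per group was pooled in equal mass for WT, αERKO and βERKO glands, and the spread between mice is therefore not seen. The protocol gives DMBA as 2 µg/ml for 24 h from day 3, and the titles name it for 1 WT array only; whether the Balb/c glands saw DMBA or were pooled is not stated in the sources used here. Pretreatment in vivo is described both as estrogen (1 µg) plus progesterone (1 mg) for 9 days and as EGF (25 ng) plus progesterone for 5 days. For the αERKO, βERKO and WT arrays that the study compared, its text names EGF plus progesterone and carcinogen in the culture. Which pretreatment the other arrays received is not stated in the sources used here.

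Intensities are given as deposited, as spot signal less local background. A level is log2 of that intensity over the median of all gene probes on its array, so 0 is the median probe, and levels were not compared between genes. The arrays had median intensities of 39.1 to 53.0 units, and 68.4 to 74.2% of gene probes were called good by the scanner software, that is, above background and regular. As the error of a log2 ratio between 2 arrays, the SD between different probes of the same RefSeq accession was used, over 510 to 553 such pairs of probes. It ranged from 0.19 to 0.67 on the log2 scale over the 21 pairs of arrays, was highest in pairs with αERKO and carries no spread between animals. Of the targeted genes, Esr1 was good on WT with DMBA, at a level of -1.02, and on Balb/c with vitamin D5, and near background on the other 5 arrays, knockout and wild type alike, so it does not set the αERKO array apart. Esr2 was good, at a level of 0.87, on the βERKO array, at least 6.69-fold brighter than on the WT array with DMBA. The signal goes against the label unless the probe lies outside the disrupted part of the gene, which was not tested, and that array is called the array labelled βERKO throughout.

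HMG-CoA synthase (Hmgcs1) makes the precursor of mevalonate. Isopentenyl diphosphate isomerase (Idi1) and farnesyl diphosphate synthase (Fdps) build the isoprenoid chains that are joined as squalene, squalene epoxidase (Sqle) and lanosterol synthase (Lss) close squalene into the first sterol, and lanosterol demethylase (Cyp51) starts its trimming to cholesterol. When sterols in the endoplasmic reticulum are scarce, SCAP carries the transcription factor SREBP2, the product of Srebf2, to the Golgi for cleavage, and the released factor switches on nearly the whole route and lipoprotein uptake; INSIG1 holds SCAP back and is itself a target. In the mammary gland these enzymes supply membranes, and milk lipid during lactation, and adipose tissue and epithelium both express them.

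Promoters of 4 members are shown, each higher on the array with vitamin D5 described below, as was Lss, whose window is not shown. CCAAT was marked since SREBP2 is known to act together with NF-Y, which binds it. The promoters are RefSeq sequences in build GRCm38.p6, from 250 bases before to 50 bases after the start of transcription. They are printed 5′ to 3′ on the strand of the gene. Capitals mark CCAAT on either strand, written ATTGG where it lies on the other strand, and TCACNCCAC, a loose form of the sterol response element. The windows are chr5:4104648-4104947 on the minus strand for Cyp51, chr13:8885356-8885655 on the plus strand for Idi1, chr13:119690101-119690400 on the plus strand for Hmgcs1 and chr5:28071162-28071461 on the plus strand for Insig1.
Cyp51: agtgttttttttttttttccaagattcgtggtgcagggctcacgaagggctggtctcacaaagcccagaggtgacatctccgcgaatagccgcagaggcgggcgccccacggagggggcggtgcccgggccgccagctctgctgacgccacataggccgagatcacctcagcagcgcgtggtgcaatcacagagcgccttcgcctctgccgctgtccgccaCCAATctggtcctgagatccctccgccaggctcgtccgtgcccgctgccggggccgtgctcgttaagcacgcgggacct
Idi1: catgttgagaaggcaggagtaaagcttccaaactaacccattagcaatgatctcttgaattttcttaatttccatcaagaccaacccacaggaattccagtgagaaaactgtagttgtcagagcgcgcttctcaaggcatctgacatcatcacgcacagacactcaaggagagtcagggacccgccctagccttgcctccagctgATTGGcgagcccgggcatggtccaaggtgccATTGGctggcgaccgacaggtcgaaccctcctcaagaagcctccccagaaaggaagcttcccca
Hmgcs1: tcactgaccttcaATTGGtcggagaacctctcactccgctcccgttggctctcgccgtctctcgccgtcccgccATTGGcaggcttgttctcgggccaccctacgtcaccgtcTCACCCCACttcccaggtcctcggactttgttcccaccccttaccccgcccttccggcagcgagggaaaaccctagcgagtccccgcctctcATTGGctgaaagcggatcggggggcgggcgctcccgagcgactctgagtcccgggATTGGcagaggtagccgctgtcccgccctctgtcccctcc
Insig1: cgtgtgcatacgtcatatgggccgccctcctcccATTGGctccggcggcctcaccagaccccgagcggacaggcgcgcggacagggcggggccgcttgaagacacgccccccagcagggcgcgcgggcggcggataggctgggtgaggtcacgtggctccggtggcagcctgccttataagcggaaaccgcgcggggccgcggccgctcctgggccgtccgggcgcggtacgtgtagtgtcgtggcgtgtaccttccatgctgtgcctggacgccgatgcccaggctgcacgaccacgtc

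RefSeq windows were matched for 6 members, these 4, Lss and Srebf2, and CCAAT was found on one strand or the other in 6 of 6, against 37.4% of all 32851 windows of that length. Cyp51 held 1 copy, beginning 29 bases before the start. Idi1 held 2 copies, at 45 and 14 bases before it, and Insig1 held 1, at 216 bases before it. Hmgcs1 held 4 copies, and it was the only 1 of the 6 with TCACNCCAC, 137 bases before the start, a motif in 1.24% of all windows. GGGCGG, which Sp1 binds, was found on either strand in 6 of 6 member windows and 35.7% of all. Neither CCAAT nor GGGCGG was particular to the members. Of 13 other cholesterol synthesis genes with a window, 12 held CCAAT and 11 held GGGCGG. Of 4 uptake and transport genes with a window, 4 held each. These matches are descriptions of the windows and not measured binding.

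Among the genes of the mevalonate part, Hmgcs1 (probe GE132682) was dim on every array though called good on all 7. Its intensity was 31.5 units on WT at 10 days, 31.6 on WT at 24 days, 46.5 on WT with DMBA, 34.2 on αERKO, 35.8 on the array labelled βERKO, 28.5 on Balb/c and 43.4 on Balb/c with vitamin D5. As levels these were -0.57, -0.51, -0.15, -0.19, -0.24, -0.82 and -0.29 in the same order. Hmgcs1 was lowest on the Balb/c array and varied least of the 7 genes, by 0.67 on the log2 scale from lowest to highest. Of the steps between neighbours in its order, only that from WT at 10 days down to Balb/c, 0.25, was beyond the SD of that pair of arrays, 0.22.

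Idi1 (GE130894) had intensities of 242 units on WT at 10 days, 240 on WT at 24 days, 415 on WT with DMBA, 399 on αERKO, 270 on the array labelled βERKO, 341 on Balb/c and 682 on Balb/c with vitamin D5. Its levels were 2.38, 2.42, 3.01, 3.35, 2.67, 2.76 and 3.68. The array with vitamin D5 was the highest and both WT arrays without DMBA were the lowest, a range of 1.31, yet no step between neighbours in the order passed its SD.

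Fdps (GE41945) was bright on all arrays, at 1795 units on WT at 10 days, 1525 on WT at 24 days, 3093 on WT with DMBA, 1502 on αERKO, 1704 on the array labelled βERKO, 1785 on Balb/c and 3889 on Balb/c with vitamin D5. The levels were 5.27, 5.08, 5.91, 5.26, 5.33, 5.15 and 6.20. Its values formed an upper pair, vitamin D5 and WT with DMBA, and a lower set of 5 arrays between 5.08 and 5.33. The step between the pair and the set, 0.58, was beyond its SD of 0.37, and no step within either was.

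In the sterol branch, Sqle (GE33725), which adds the oxygen to squalene and limits the rate of the branch, followed another order. Its intensity was 37.7 units on WT at 10 days, 54.3 on WT at 24 days, 47.4 on WT with DMBA, 8.02 on αERKO, 52.2 on the array labelled βERKO, 117 on Balb/c and 55.9 on Balb/c with vitamin D5. The levels were -0.31, 0.27, -0.12, -2.29, 0.30, 1.22 and 0.08, and the αERKO value was near background, so only a bound can be given for it, which lies below the other 6 arrays. Balb/c without vitamin D5 stood 0.92 above the next array, with an SD of 0.45, and the next 5 arrays differed from their neighbours by less than the SD.

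Lss (GE132939) had intensities of 129 units on WT at 10 days, 133 on WT at 24 days, 167 on WT with DMBA, 57.5 on αERKO, 115 on the array labelled βERKO, 157 on Balb/c and 212 on Balb/c with vitamin D5. Its levels were 1.47, 1.56, 1.70, 0.56, 1.44, 1.64 and 2.00. The αERKO array was 0.89 below the next lowest, with an SD of 0.56, and the other 6 arrays formed a series in which no step passed its SD.

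Cyp51 (GE37658) had intensities of 493 units on WT at 10 days, 566 on WT at 24 days, 1432 on WT with DMBA, 412 on αERKO, 688 on the array labelled βERKO, 443 on Balb/c and 966 on Balb/c with vitamin D5. The levels were 3.40, 3.66, 4.80, 3.40, 4.02, 3.14 and 4.19. WT with DMBA was highest, 0.61 above Balb/c with vitamin D5 against an SD of 0.33. The steps from the array labelled βERKO down to WT at 24 days, 0.37, and from there to WT at 10 days, 0.25, were also beyond their SDs of 0.33 and 0.23. Among the lowest 3, WT at 10 days, αERKO and Balb/c, no step was, and the whole range was 1.66.

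Insig1 (GE136887), the brake on SREBP2 release, had an intensity of 6.80 units on WT at 10 days, 18.9 on WT at 24 days, 76.1 on WT with DMBA, 39.7 on αERKO, 47.3 on the array labelled βERKO, 13.9 on Balb/c and 26.7 on Balb/c with vitamin D5. The levels were -2.78, -1.25, 0.56, 0.02, 0.16, -1.86 and -0.99, and those of WT at 10 days and of Balb/c were near background. The 3 highest arrays were WT with DMBA, αERKO and the array labelled βERKO, and the step from αERKO down to Balb/c with vitamin D5, 1.01, was beyond its SD of 0.62. Those 3 arrays also had the highest mean levels of 8 adipocyte markers, at 7.68 on WT with DMBA, 8.27 on αERKO and 7.00 on the array labelled βERKO, against 2.83 to 6.07 on the other 4. Fibroblast and endothelial markers likewise had their highest mean levels on those 3 arrays, with some marker values near background. Within the 3, αERKO had the highest adipocyte mean and the lowest Insig1 level. The part of fat cells, fibroblasts or endothelium in the Insig1 signal was not tested. In whole glands fewer cells of a type and less RNA per cell cannot be told apart.

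**Figure D1:**
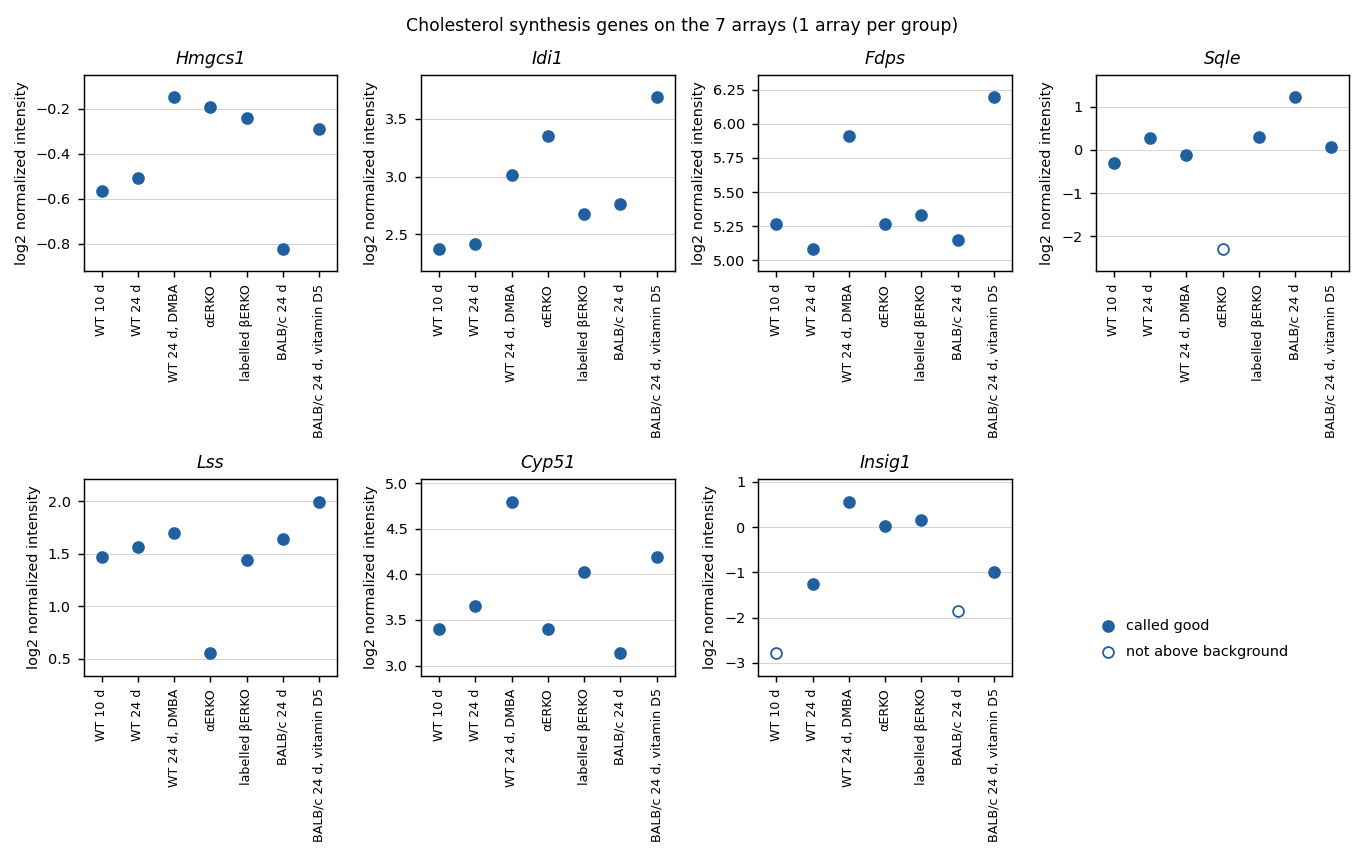
Levels of the 7 measured genes on each array, as log2 of intensity over the array's median probe; each panel has its own scale, each point is 1 array, and open points were not called above background. Fdps, Idi1 and Lss were highest on Balb/c with vitamin D5, Hmgcs1, Cyp51 and Insig1 on WT with DMBA, and Sqle on Balb/c without vitamin D5.

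The comparison with and without vitamin D5 asked what the compound did in Balb/c glands, and 6 of the 7 measured genes were higher with it. Relative to Balb/c without it, Fdps was 2.07-fold higher, with a log2 ratio of 1.05, and Cyp51 was 2.07-fold higher, also at 1.05, with an SD of 0.23 for each ratio in this pair of arrays. Idi1 was 1.90-fold higher, at 0.92, Hmgcs1 was 1.44-fold higher, at 0.53, and Lss was 1.28-fold higher, at 0.36. Insig1 was near background without vitamin D5 and good with it, at least 1.75-fold higher. Sqle went the other way and was 2.21-fold lower with vitamin D5, at -1.14.

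Of the 6 genes good on both arrays, 2 were over 2-fold higher and 1 was over 2-fold lower, where of 22669 probes good on both 2.19% passed 2-fold either way, 1.12% higher and 1.07% lower. The median log2 ratio was 0.73 over the 6 genes and 0.10 over all probes. Only 0.94% of probes had a higher ratio than Fdps or Cyp51, 1.42% a higher one than Idi1, and 0.68% a lower one than Sqle. The 2-fold calls depended on the scaling. With the 75th percentile of each array in place of the median, Fdps and Cyp51 stood at 0.92 each and only Sqle passed 2-fold, and over all probes 163 were then higher and 372 lower against 254 and 243. The median of the 6 genes stayed 0.50 to 0.71 above that of all probes under the 7 scalings and background settings tried, with 5 of 6 higher in each. Sqle and Hmgcs1 were dim, and with normexp background correction and an offset of 50 they moved to -0.68 and 0.20.

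**Figure D2:**
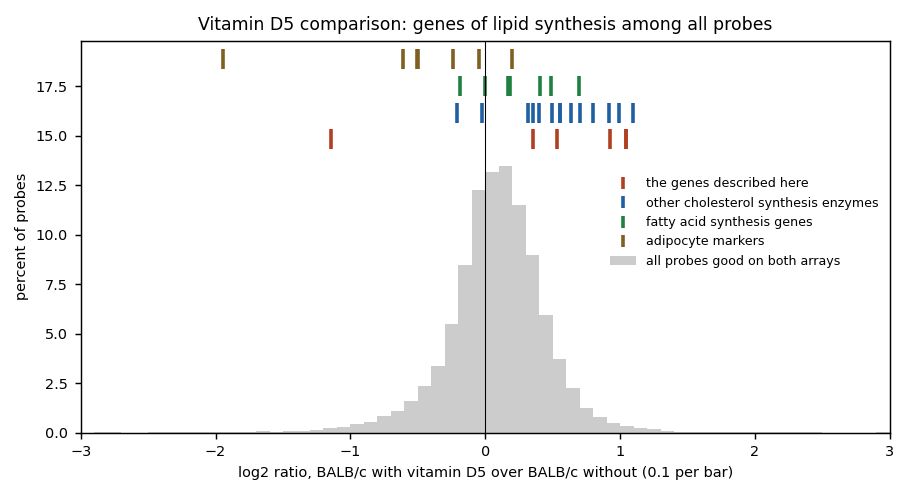
Distribution of log2 ratios, Balb/c with vitamin D5 over Balb/c without, for all probes good on both arrays (grey bars, percent of probes per 0.1), with coloured ticks for single genes of 4 lists drawn above the bars at arbitrary height. Of the 6 members shown, 5 lie right of 0, near 1 for Fdps, Cyp51 and Idi1, and Sqle lies at -1.14; other cholesterol synthesis enzymes lie mostly right of 0, and adipocyte markers mostly left.

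Other enzymes of the route were mostly higher as well in this pair of arrays. Of 15 others with a probe, 14 were good on both arrays and 12 of them were higher with vitamin D5, with a median of 0.55. Msmo1, the sterol C4-methyl oxidase, was over 2-fold higher at 1.10, and was the only 1 of the 14 to pass; with the 75th percentile, quantile, cyclic loess and normexp settings 0 passed. The sterol dehydrogenase Nsdhl stood at 0.99 and mevalonate diphosphate decarboxylase (Mvd) at 0.92. Mevalonate kinase (Mvk), at -0.21, and Dhcr7, which makes the last step, at -0.02, were the 2 that were not higher. Past 2-fold were 0 of 7 uptake and transport genes good on both arrays. The median of 7 fatty acid synthesis genes, 0.18, was close to that of all probes, and 0 of them passed 2-fold.

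Markers of cell types also differed between these arrays. Of 7 luminal epithelial markers 6 were higher with vitamin D5, by a median of 0.53, with summed levels, in units of the array median, of 729 without and 890 with. Of 7 adipocyte markers good on both 6 were lower, by a median of -0.50, with summed levels of 440 and 327. Of 5 fibroblast markers good on both 4 were higher, by a median of 0.88, with summed levels of 23.6 and 42.4. The part of these in the cholesterol gene ratios was not tested.

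The WT arrays at 24 days with and without DMBA asked what the carcinogen left behind at the end of culture. Insig1 was 3.51-fold higher with DMBA, at a log2 ratio of 1.81 with an SD of 0.31, and Cyp51 was 2.21-fold higher, at 1.14. Fdps stood at 0.82, Idi1 at 0.59, Hmgcs1 at 0.36 and Lss at 0.13, and Sqle was lower at -0.39. Of 7 genes good on both arrays, 2 were over 2-fold higher and 0 lower, where 11.8% of all probes passed 2-fold either way, 6.83% higher and 4.94% lower. The median over the 7 was 0.59, against -0.15 for all probes. With normexp Insig1 stood at 0.75 and only Cyp51 stayed over 2-fold, while under quantile and cyclic loess scaling Fdps passed it too, at 1.07 and 1.12.

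Other enzymes were mixed in the DMBA comparison, with 8 of 15 higher and a median of 0.27. Phosphomevalonate kinase (Pmvk), at 1.18, was among the 2 past 2-fold upward, and Ggps1, which diverts the chain to geranylgeranyl groups, passed it downward at -1.21. Among uptake genes Vldlr, at 1.26, and the HDL receptor gene Scarb1, at 1.10, were over 2-fold higher. Fatty acid synthesis genes differed more, with 5 of 7 over 2-fold higher and a median of 1.38, among them fatty acid synthase (Fasn) at 2.15. Markers of stroma and fat differed between these arrays as well. Of 8 adipocyte markers 6 were over 2-fold higher, by a median of 1.68, with summed levels of 1228 without and 2258 with DMBA. Of 4 fibroblast markers good on both 4 were over 2-fold higher, by a median of 4.28, with summed levels of 12.4 and 203, and 6 of 7 luminal markers were lower, by a median of -0.63. Their part in the cholesterol gene ratios was not tested.

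In αERKO glands, set against WT with DMBA, Cyp51, Lss and Sqle of the sterol branch were lower. Cyp51 was 2.64-fold lower, at -1.40, and Lss was 2.20-fold lower, at -1.14, with an SD of 0.59. Sqle was near background on αERKO and at least 2.54-fold lower there. This bound holds for the main setting, and over the other settings tried the Sqle log2 ratio ran from -2.23 to -0.53. Fdps stood at -0.64, Insig1 at -0.54, Hmgcs1 at -0.04 and Idi1 at 0.34. Of 6 genes good on both arrays, 0 were over 2-fold higher and 2 lower, where 17.7% of all probes passed 2-fold either way, 8.1% higher and 9.65% lower. With the 75th percentile the probes split into 2225 higher and 1698 lower, against 1787 and 2129, and Cyp51 and Lss were at -1.27 and -1.01. With cyclic loess and with normexp Lss was no longer past 2-fold, at -0.94 and -0.81. The sign of the Hmgcs1 ratio turned with the scaling, between -0.06 and 0.09.

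Other enzymes of the route went both ways in αERKO glands. Mvd, at -1.37, was among the 3 over 2-fold lower, while Sc5d, a late sterol desaturase, at 1.36, and squalene synthase (Fdft1), at 1.00, were over 2-fold higher. The number higher of 15 was 5, and between 4 and 7 under the other scalings. Srebf1, which encodes the sister factor SREBP1, was the 1 of 5 other regulators past 2-fold, at -1.06. Of 7 uptake and transport genes good on both arrays, 7 were lower and 3 were over 2-fold lower, Lipa (lysosomal acid lipase) at -3.12, Vldlr at -1.18 and Scarb1 at -1.13, with 1 left past 2-fold under cyclic loess. The αERKO array had far higher skeletal muscle markers, with a summed level of 1776 and 7 of 7 good, against 12.6 and 4 of 7 good on WT with DMBA. It also had the lowest luminal markers of the 7 arrays, with a summed level of 418 against 503 on WT with DMBA. Of 3 macrophage markers 3 were over 2-fold lower, by a median of -2.25, and of 5 basal markers 4, by a median of -1.27. Of 6 fibroblast markers 5 were higher, by a median of 0.70, and of 8 adipocyte markers 7, by a median of 0.41. Whether muscle or other cell types in the sample accounted for any ratio was not tested.

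On the array labelled βERKO the members differed less from the same WT array, which the αERKO comparison shares. Cyp51 stood at -0.77, Fdps at -0.58, Insig1 at -0.40, Idi1 at -0.34, Lss at -0.25 and Hmgcs1 at -0.09, with Sqle at 0.42 and an SD of 0.37. Past 2-fold were 0 of 7, where 8.4% of all probes were. The median was -0.34, against 0.11 for all probes. Of the other enzymes 0 of 15 passed 2-fold. Since Esr2 was bright on this array, the directions are those of the array as labelled. Of 6 fibroblast markers 5 were over 2-fold lower, by a median of -1.49, with summed levels of 65.0 against 203 on WT with DMBA. Of 8 adipocyte markers 3 and of 4 endothelial markers 3 were also over 2-fold lower, by medians of -0.64 and -1.29. The part of these cell types in the ratios was not tested.

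Set directly against the array labelled βERKO, αERKO had Sqle at least 3.41-fold lower in the main setting. Over the other settings tried, its log2 ratio ran from -2.62 to -0.73. Lss stood at -0.89, Cyp51 at -0.63 and Idi1 at 0.67, with an SD of 0.56, and Insig1, Fdps and Hmgcs1 were between -0.14 and 0.05. Of 6 genes good on both, 0 passed 2-fold, where 22.2% of all probes did, and with cyclic loess Idi1 passed it at 1.04. The signs of the Insig1 and Fdps ratios turned with the scaling, up to 0.04 and 0.34. Of other enzymes Ggps1, at -1.40, and Msmo1, at -1.14, were among the 3 over 2-fold lower, and Acat2, at 1.08, was over 2-fold higher. With cyclic loess 4 of the 15 were over 2-fold higher and 2 lower, and with normexp 0 and 2. In this pair 6 of 6 fibroblast markers, by a median of 2.16, and 5 of 5 skeletal muscle markers good on both, by a median of 5.75, were over 2-fold higher on αERKO, and 3 of 4 basal markers were over 2-fold lower. Their part was not tested.

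**Figure D3:**
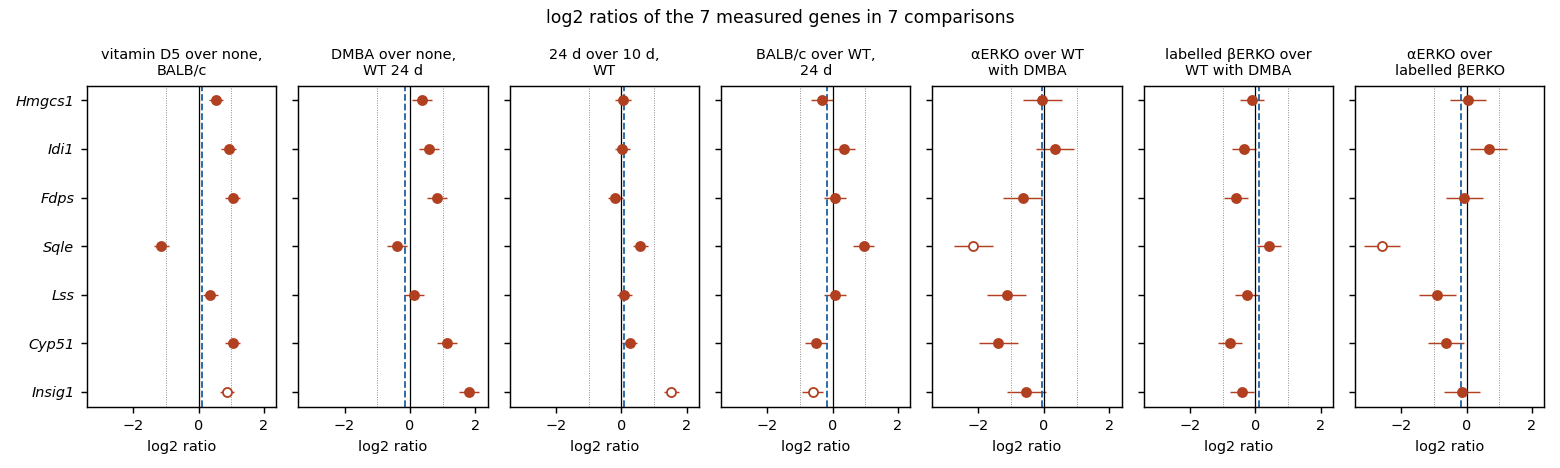
The log2 ratios of the 7 measured genes in each of the 7 comparisons; bars are 1 SD between probes of the same RefSeq accession for that pair of arrays, open points were not good on both arrays, dotted lines mark 2-fold and dashed blue lines the median of all probes. Bars are shortest for the vitamin D5 and time comparisons and longest where αERKO enters; Cyp51 lies beyond 2-fold upward with vitamin D5 and with DMBA and downward in αERKO glands.

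The WT arrays at 24 and 10 days without DMBA differed little in the members, across the change from growth to regression medium. Sqle stood at 0.58 and Cyp51 at 0.25, with an SD of 0.23, and Fdps was lower at -0.18. Lss was at 0.09, Hmgcs1 at 0.06 and Idi1 at 0.04, and the last 2 changed sign under some scalings. Insig1 was near background at 10 days and at least 1.40-fold higher at 24 days. Past 2-fold were 0 of 6, where 4.57% of all probes were. Other enzymes were higher in 12 of 15, by a median of 0.46 against 0.09 for all probes, with Mvd at 0.74 and Msmo1 at 0.72, and 0 passed 2-fold. Adipocyte markers were higher in 8 of 8 in the same pair, with a summed level of 462 at 10 days and 1228 at 24 days. Of 5 basal markers 3 were over 2-fold lower and 1 over 2-fold higher, by a median of -1.32. Summed levels of the basal markers were 691 at 10 days and 266 at 24 days. The part of either cell type was not tested.

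Balb/c and WT C57 glands at 24 days, neither labelled with a treatment, were set side by side for strain. Sqle was 1.93-fold higher on Balb/c, at 0.95 with an SD of 0.33, Idi1 stood at 0.35, Lss at 0.08 and Fdps at 0.07, and Cyp51 and Hmgcs1 were lower at -0.52 and -0.31. Insig1 was near background on Balb/c and at least 1.46-fold lower there. Past 2-fold were 0 of 6, where 9.26% of all probes were. Under the 75th percentile Sqle passed 2-fold at 1.16, as it did with quantile scaling at 1.06, and the probes past 2-fold split into 1122 higher and 702 lower in place of 639 and 1424. Other enzymes were lower on Balb/c in 13 of 14, by a median of -0.63 against -0.18 for all probes, and 4 passed 2-fold, Msmo1 at -1.16, Ggps1 at -1.08, Ebp, the sterol isomerase, at -1.06 and Nsdhl at -1.05. With the 75th percentile, quantile, cyclic loess and normexp settings 0 of the 14 passed it. The number higher of those 14 was between 1 and 4 over the scalings tried, and their median stayed below that of all probes in each. This comparison and that of vitamin D5 share the Balb/c array, so a deviation of that 1 array enters both with opposite sign. Adipocyte markers were also lower on Balb/c, at a summed level of 440 against 1228. Basal markers were higher there in 5 of 5, by a median of 0.79, with 2 over 2-fold. The part of either cell type was not tested.

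**Figure D4:**
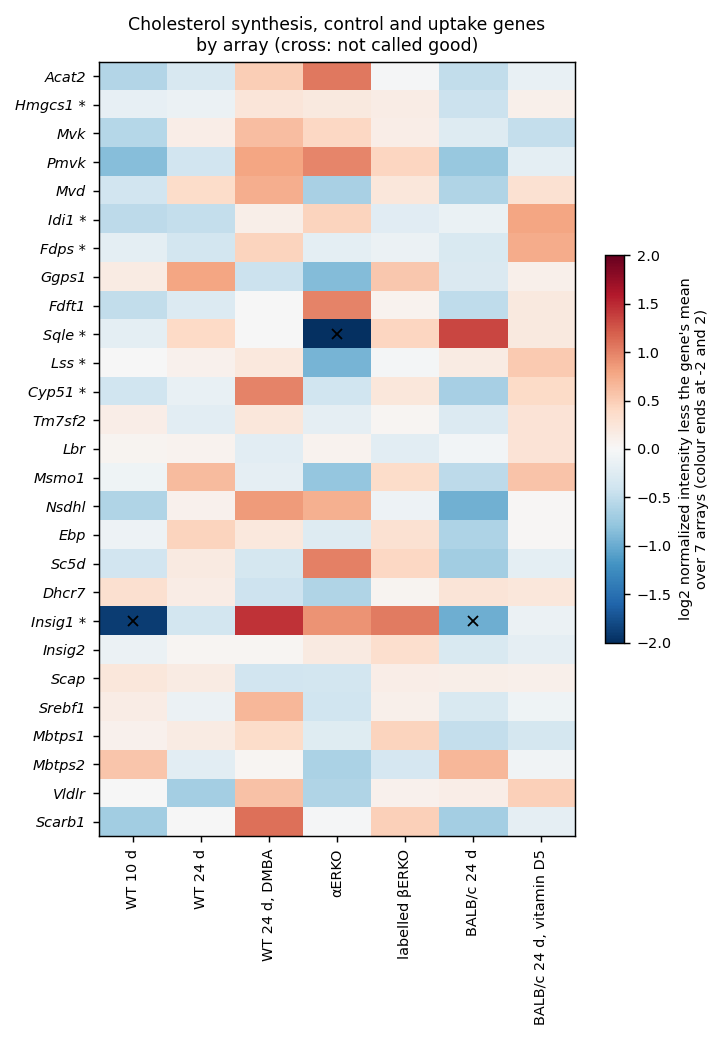
Levels of selected cholesterol synthesis enzymes in pathway order, then control genes and receptors (rows; asterisks mark the 7 genes described here), on the 7 arrays (columns), as log2 less each gene's mean over the arrays; crosses mark values not called good. Among the 7 genes, the strongest colours lie on αERKO for Sqle, at -2.16, and on WT at 10 days for Insig1, at -1.90. Both are crossed. Next are WT with DMBA for Insig1, at 1.44, and Balb/c for Sqle, at 1.34.

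The 7 genes did not share a single profile over the arrays. With each gene's mean over the 7 arrays taken off, the closest pairs were Idi1 with Fdps, at a root mean square difference of 0.31 on the log2 scale, Hmgcs1 with Fdps, at 0.33, and Fdps with Cyp51, at 0.34. The farthest pair was Sqle with Insig1, at 1.73. The mean profile of the 7 genes was highest on WT with DMBA, at 0.49, and on Balb/c with vitamin D5, at 0.37, and lowest on WT at 10 days, at -0.48, and αERKO, at -0.30. Over the 5 genes good on every array these were 0.40, 0.51, -0.26 and -0.17, with Balb/c lowest at -0.27.

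The genes whose profile was nearest to that mean, of 9823 ranked probes, were Prdx4, an endoplasmic reticulum peroxiredoxin, and Aldh3b1, an aldehyde dehydrogenase, both at 0.16, followed by the transcriptional coactivator gene Yap1 at 0.17 and by Fancg and the fibrillin gene Fbn2 at 0.18. Over all ranked probes the median difference was 0.46, and a flat profile would have 0.34. Of the genes of the route outside the members, Tm7sf2, a sterol reductase, was nearest, at 0.27 and rank 157. With 7 arrays these distances are descriptions.

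**Figure D5:**
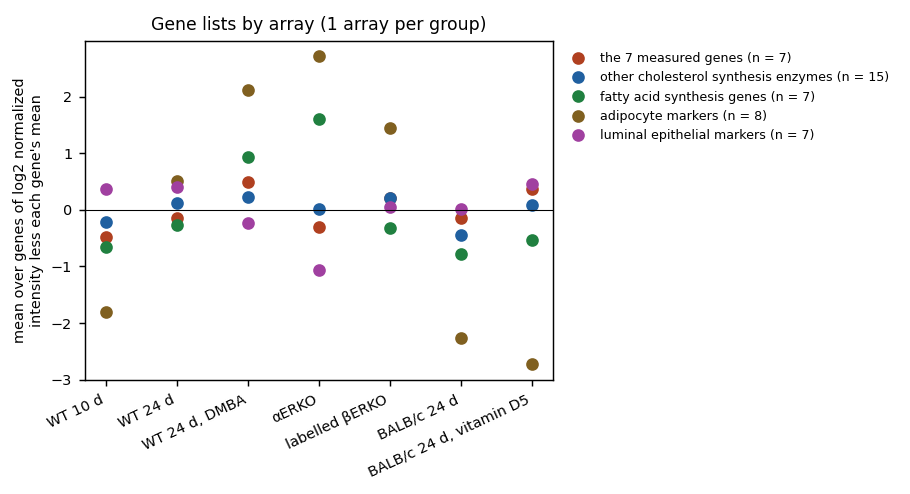
Mean level of 5 gene lists on each array, as log2 less each gene's mean over the 7 arrays; each point is the mean over the genes of a list on 1 array. The 7 measured genes span -0.48 to 0.49 while adipocyte markers span -2.73 to 2.72; on αERKO fatty acid synthesis genes stand at 1.61 and the measured genes at -0.30.

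Levels of cholesterol and of fatty acid synthesis genes were set side by side. The mean level of 7 fatty acid synthesis genes was highest on αERKO, at 6.02, where the mean of the 7 cholesterol genes, 1.44, was below those of WT with DMBA, 2.24, and of the array labelled βERKO, 1.96. That mean includes the near-background Sqle value. The 15 other cholesterol synthesis enzymes had a mean level of 3.09 on αERKO, below 3.31 on WT with DMBA and 3.29 on the array labelled βERKO. Their summed level, in which the brightest probes weigh most, was highest of the 7 arrays on αERKO, 320 against 265 on WT with DMBA. On Balb/c with vitamin D5 the cholesterol genes stood at 2.12 and the fatty acid genes at 3.87, against 1.60 and 3.62 without it. Means of different lists rest on different probes, and only their order over arrays is compared. Efflux and storage genes, which remove cholesterol or esterify it, had 0 of 7 past 2-fold with vitamin D5. With DMBA 3 of 7 were over 2-fold higher, the liver X receptor gene Nr1h3 at 1.52, Apoe at 1.20 and Cyp27a1, which makes 27-hydroxycholesterol, at 1.03.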

How the data were processed

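RNA of mammary glands in organ culture was hybridized as biotinylated cRNA to CodeLink Mouse Whole Genome arrays, 7 in all and 1 per group, with 320 negative and 300 positive control spots left out. The authors deposited an intensity per spot, the spot mean less the median of the local background, with a quality call. The aligner and genome build do not apply. Levels are log2 of that intensity over the array's median of 34967 gene probes, and a floor, the smallest positive intensity of the array, replaced the 246 to 344 values per array that were 0 or negative. Probes were named through RefSeq: a symbol was found for 14760 of the 15553 probes that carry such an accession. A fold for a probe near background on 1 array is a bound, for which the dim array's smallest value called good, or the probe's own where larger, stood in for the dim value. Counts cover probes good on both arrays with a threshold of 2-fold.

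Groups of a single array allow no test, and their number limits the precision. Gene lists were other cholesterol synthesis, SREBP regulators, uptake and transport, efflux and storage, fatty acid synthesis, and markers of adipocytes, luminal and basal epithelium, skeletal muscle, macrophages, fibroblasts, endothelium and lymphocytes. Members and lists were chosen with earlier results of these data known. In each list and comparison up to 4 genes past 2-fold were named, largest first; other genes named beside the members were chosen after their values were seen. Between the Balb/c arrays the remaining lists had medians of 0.12 for SREBP regulators, 0.39 for basal, -0.47 for skeletal muscle, 0.28 for macrophage, -0.47 for endothelial and 0.03 for lymphocyte genes. The calculation of ratios was tested on simulated data. Python 3.11.15, pandas 2.3.3, numpy 2.4.6, R 4.3.3 and limma 3.58.1 were used. The series value table, whose rows are not paired with probes, was not used. Some genes of the lists enter the counts but are not reported here by name.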

Additional observations from a re-analysis of the deposited data

How the results depend on the processing

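Other settings were the 75th percentile of each array, quantile normalization, cyclic loess, the median over all spots, normexp with an offset of 50, the authors' deposited normalized intensity, the mean of all probes of a gene, thresholds of 1.5-fold and 3-fold and other filters on low values. Of 343 recomputed single-gene ratios 331 moved by less than 1 SD, as did 48 of 49 medians, the exception being vitamin D5 with normexp, 0.29 in place of 0.87 over all 7 genes. Of 63 recomputed counts of members past 2-fold, 45 stayed within 1.5 times. Vitamin D5 had 3 members past 2-fold, and 1 with the 75th percentile, quantile, cyclic loess and normexp settings and 0 at 3-fold. αERKO over WT had 2, and 1 with cyclic loess, 1 with normexp and 0 at 3-fold. DMBA had 2, and 3 with quantile and cyclic loess, 1 with normexp, 4 at 1.5-fold and 1 at 3-fold. The array labelled βERKO over WT had 0, and 1 at 1.5-fold. αERKO over the array labelled βERKO had 0, and 1 with cyclic loess and 3 at 1.5-fold. Balb/c over WT had 0, and 1 each with the 75th percentile, quantile, cyclic loess and 1.5-fold settings. The cause was not tested.

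No paired analysis was possible because each group has 1 array. Hmgcs1, Sqle and Insig1 lay near or below the median probe, where the offset of normexp shrinks a ratio by construction.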
